A study of Mus musculus with 19 samples.

Results

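The clustered protocadherin genes lie side by side on chromosome 18 in 3 tandem arrays, called alpha, beta and gamma. Members were chosen by symbol (Pcdha, Pcdhac, Pcdhb, Pcdhga, Pcdhgb or Pcdhgc followed by a number), and 58 such genes stood among the 48709 genes of the count files, 14 in the alpha, 22 in the beta and 22 in the gamma cluster. A gene was tested where at least 5 reads were counted in at least 10 of the 19 libraries. Of the 58 genes, 54 passed this limit (12 alpha, 22 beta and 20 gamma), within 19286 genes tested in all.

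The tissue was CA1, the output field of the hippocampus, dissected from male C57B/6J mice. Young mice (3 months, n = 6) and old control mice (16.5 months, n = 6) received control oligonucleotides, and old anti-miR-mix mice (16.5 months, n = 7) received the anti-miR-mix, inhibitors of 3 microRNAs (miR-148a-3p, miR-146a-5p and miR-181a-5p). All 3 groups were injected in the dorsal hippocampus with lipid nanoparticles, so every mouse had undergone surgery. No young mice given the anti-miR-mix were in these samples, so a response at the younger age was not measured.

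Clustered protocadherins are cadherin-like adhesion proteins of neurons. Each variable exon has its own promoter, a neuron switches on a small set of these promoters largely by chance, and the proteins on its surface form complexes that bind only a matching set on the facing membrane. This gives neurons an identity by which branches of the same cell recognise and avoid each other. In the alpha and gamma clusters the variable exon, which encodes the outer part, is spliced to constant exons shared by the whole cluster, whereas each beta gene is a single exon. The C-type members at the end of the alpha and gamma clusters (Pcdhac1, Pcdhac2, Pcdhgc3, Pcdhgc4 and Pcdhgc5) are used more widely than the chance-selected members, and Pcdhgc4 is known to be needed for the survival of some neurons.

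The mature sequences of the 3 targeted microRNAs are given from RefSeq (GRCm38.p6), because the 3 prime UTRs of the members were searched for their seeds. Capitals mark the seed (bases 2 to 8) and each line runs 5′ to 3′. miR-146a-5p lies at chr11:43374435-43374456 on the minus strand, miR-148a-3p at chr6:51269829-51269850 on the minus strand, and miR-181a-5p at chr1:137966468-137966490 and chr2:38852741-38852763, both on the plus strand. The 3 seeds differ from each other.
miR-146a-5p: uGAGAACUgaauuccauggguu
miR-148a-3p: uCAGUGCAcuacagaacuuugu
miR-181a-5p: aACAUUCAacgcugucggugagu

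The members spanned chr18:36930184-37841873 (GRCm38, GENCODE M21), with the alpha cluster first, then beta, then gamma, all read in the plus direction. The shared exons set how much of each gene could be counted. Only a median of 39.0% of the 50-base windows of an alpha gene's transcripts and 52.6% of those of a gamma gene occurred in no other gene of the annotation, against 95.6% for a beta gene. Reads in exons common to several genes are left unassigned by the counter, so an alpha or gamma value reports chiefly the variable exon. The read-through gene models Gm42416, Gm37013, Gm37388 and Gm38182, which join exons of several members, were listed at 0 reads in all 19 libraries.

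The 4 members that were not tested had few reads. Pcdha4 was just outside the limit, with at least 5 reads in 7 libraries and 404 exonic bases free of other genes, and Pcdhga10 had 0 such bases and 0 reads in every library. Pcdhgb8, annotated as a polymorphic pseudogene, and the second gene named Pcdha11 (ENSMUSG00000102206) each reached 5 reads in 1 library. Just inside the limit stood Pcdhb1, with 5 reads or more in 14 libraries and a median of 7 reads, and then Pcdha8, with a median of 12 reads. In the text Pcdha11 means ENSMUSG00000007440, which starts at chr18:37005203, after the start of Pcdha9 and before that of the second gene of this name. No member was named Pcdha10, so this symbol is uncertain.

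Levels were compared between genes as counts per 1000000 reads (CPM, scaled by the TMM method) per 1000 windows of 50 bases found in no other gene. The C-type genes Pcdhgc5 (15.1 ± 1.48, SD over 19 libraries) and Pcdhgc3 (14.6 ± 0.748) stood highest, and their ranges of mean ± SD overlapped. Pcdhac2 (9.30 ± 0.703) followed. The remaining C-type genes stood lower, Pcdhgc4 at 4.07 ± 0.592 and Pcdhac1, the other alpha C-type gene, at 1.15. The highest of the other members were Pcdhga11 (8.27 ± 0.818) in gamma A, Pcdhb9 (6.93 ± 1.57) in beta, Pcdhgb6 (5.25 ± 0.682) in gamma B and Pcdha12 (2.35 ± 0.398) in alpha. The lowest members of these groups on the same scale were Pcdhb1 (0.0960), Pcdha8 (0.204), Pcdhgb5 (0.963) and Pcdhga9 (2.36). The median member had 1.12 in the alpha, 2.01 in the beta and 4.13 in the gamma cluster.

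**Figure D1:**
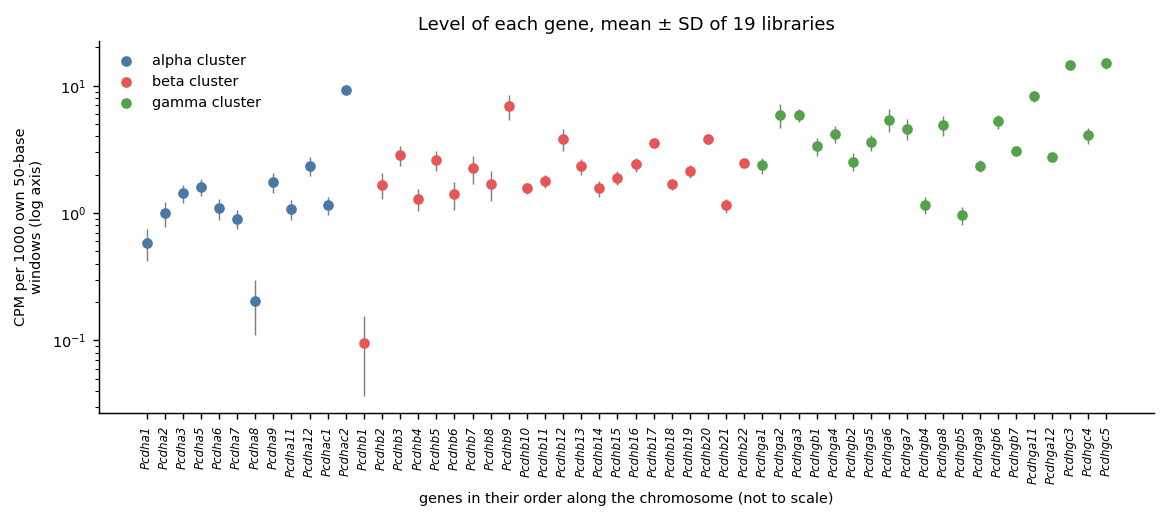
Level of each of the 54 tested genes in CPM per 1000 own 50-base windows on a log axis, in chromosomal order. Points are means and bars SDs of 19 libraries, and the C-type genes Pcdhgc5 (15.1), Pcdhgc3 (14.6) and Pcdhac2 (9.30) stand highest.

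The comparison of old control with young mice asked which genes differ with age. Of the 54 members, 12 rose in old control mice and 0 fell (edgeR quasi-likelihood test, adjusted p under 0.05 over all genes tested). Among all 19286 genes, 1.32% rose and 1.34% fell by the same rule. By cluster, 9 of 22 beta genes and 3 of 20 gamma genes rose, all 3 of the gamma A kind. In the alpha cluster 0 of 12 genes were called, with 1 at an unadjusted p under 0.05, where 18.1% of all genes tested had such a p. The median log2 fold change was 0.29 for beta, 0.02 for gamma and -0.10 for alpha genes, beside 0.01 for all genes tested. DESeq2 also called 12 members higher, 11 of these and Pcdhb4, and none lower. Folds of the 12 genes ran from 1.24 (Pcdhb11) to 4.05 (Pcdhb1), with a median of 1.5.

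Pcdhb9, the most abundant beta gene per length, had 12.1, 12.8 and 15.1 CPM as the lowest, median and highest young value. In old control libraries the values were 20, 22.1 and 23.5 CPM, and with the anti-miR-mix 18.9, 21.5 and 24.3 CPM. Both old groups lay wholly above the young mice and overlapped each other. The log2 fold change of old control against young was 0.74 ± 0.07 (SE, edgeR adjusted p = 3.22e-06), a 1.67-fold difference. Like the other members named here, it encodes an adhesion protein with cadherin repeats, and no beta protein carries the shared alpha or gamma cytoplasmic part.

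Pcdhb2 and Pcdhb6 behaved alike in size. Pcdhb2 had 2.64, 3.21 and 4.30 CPM in young, 4.68, 5.52 and 6.22 in old control and 4.45, 4.81 and 5.53 CPM in old anti-miR-mix libraries (lowest, median, highest), and old control exceeded young by 0.73 ± 0.10 on the log2 scale (edgeR adjusted p = 0.00051). Pcdhb6 had 3.01, 3.42 and 3.96 CPM in young and 5.38, 5.72 and 6.56 CPM in old control, a log2 fold change of 0.77 ± 0.11 (edgeR adjusted p = 0.00047). For both genes each old control library lay above each young one. In old anti-miR-mix mice Pcdhb6 had 3.93, 5.31 and 6.33 CPM, and its lowest library fell within the young range.

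Pcdhb3 had 6.68, 7.90 and 9.01 CPM in young, 11.1, 11.8 and 13.3 CPM in old control and 10.3, 10.8 and 11.9 CPM in old anti-miR-mix libraries. The young values overlapped with neither old group, and the log2 fold change with age was 0.58 ± 0.07 (edgeR adjusted p = 0.000116). Pcdhb14 gave 10.4, 10.7 and 12.3 CPM in young against 13.3, 14.9 and 15.6 CPM in old control mice, a log2 fold change of 0.42 ± 0.07 (edgeR adjusted p = 0.00149), again without overlap. Pcdhb5 had 5.39, 7.19 and 8.56 CPM in young and 8.22, 10.1 and 11.9 CPM in old control mice. Here the groups overlapped, and the log2 fold change was 0.49 ± 0.10 (edgeR adjusted p = 0.0140).

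Pcdhb1 showed the largest fold change of the 12 and the fewest reads. It had 0 to 7 reads in young, 9 to 15 in old control and 4 to 15 in old anti-miR-mix libraries. The log2 fold change of old control against young was 2.02 ± 0.42 (edgeR adjusted p = 0.0117), and the groups did not overlap. Only 2 of the 6 young libraries reached 5 reads, against 6 of 6 old control libraries, so this gene met the read limit through the old groups. Without it, 11 of 53 members, 8 of 21 beta genes and 6 of the 8 genes Pcdhb2 to Pcdhb9 rose, the beta median was 0.27, and the largest fold was 1.70 (Pcdhb6).

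Pcdhb8 and Pcdhb11 were the closest of the 12 to the threshold. Pcdhb8 had 2.98, 3.79 and 5.45 CPM in young and 4.13, 5.92 and 7.41 CPM in old control mice, with overlap and a log2 fold change of 0.57 ± 0.14 (edgeR adjusted p = 0.0368). Its adjusted p was between 0.0632 and 0.0953 without any one of young replicates 1, 3, 4 and 6 or old control replicates 2 to 5. Pcdhb11 had 5.30, 6.48 and 6.84 CPM in young and 7.28, 7.84 and 8.32 CPM in old control mice, with no overlap and a log2 fold change of 0.31 ± 0.08 (edgeR adjusted p = 0.0299). Its adjusted p was between 0.0523 and 0.0685 without any one of young replicates 4 and 5 or old control replicates 2 to 6. The other 10 genes stayed past the threshold under each of up to 24 alternatives that gave an adjusted p.

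The called beta genes stood mostly at the start of the cluster. Of Pcdhb1 to Pcdhb9, 7 rose with age and the exceptions were Pcdhb4 and Pcdhb7, whereas 2 of the 13 genes Pcdhb10 to Pcdhb22 rose. This division was drawn after the values were seen and was given no test. Pcdhb4 had a log2 fold change of 0.44 ± 0.12 (edgeR adjusted p = 0.0594), and without young replicate 3 or without old control replicate 5 it passed, at an adjusted p of 0.0281 to 0.0460. Pcdhb7 went the other way, with a log2 fold change of -0.17, the lowest of the 22 beta genes. It had 5.47 to 8.77 CPM in young and 5.96 to 7.34 CPM in old control mice, with overlap. Over the 22 beta genes, position along the cluster and log2 fold change had a Spearman rho of -0.76 (-0.72 over the 21 without Pcdhb1), as a description of genes that share the same libraries. The summed level of Pcdhb1 to Pcdhb9 was 45.5, 50.7 and 54.1 CPM in young (lowest, median, highest) and 67.0, 73.3 and 78.1 CPM in old control mice. That of Pcdhb10 to Pcdhb22 was 118.1, 121.9 and 127.2 CPM in young and 121.8, 129.1 and 138.4 CPM in old control mice, with overlap.

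**Figure D2:**
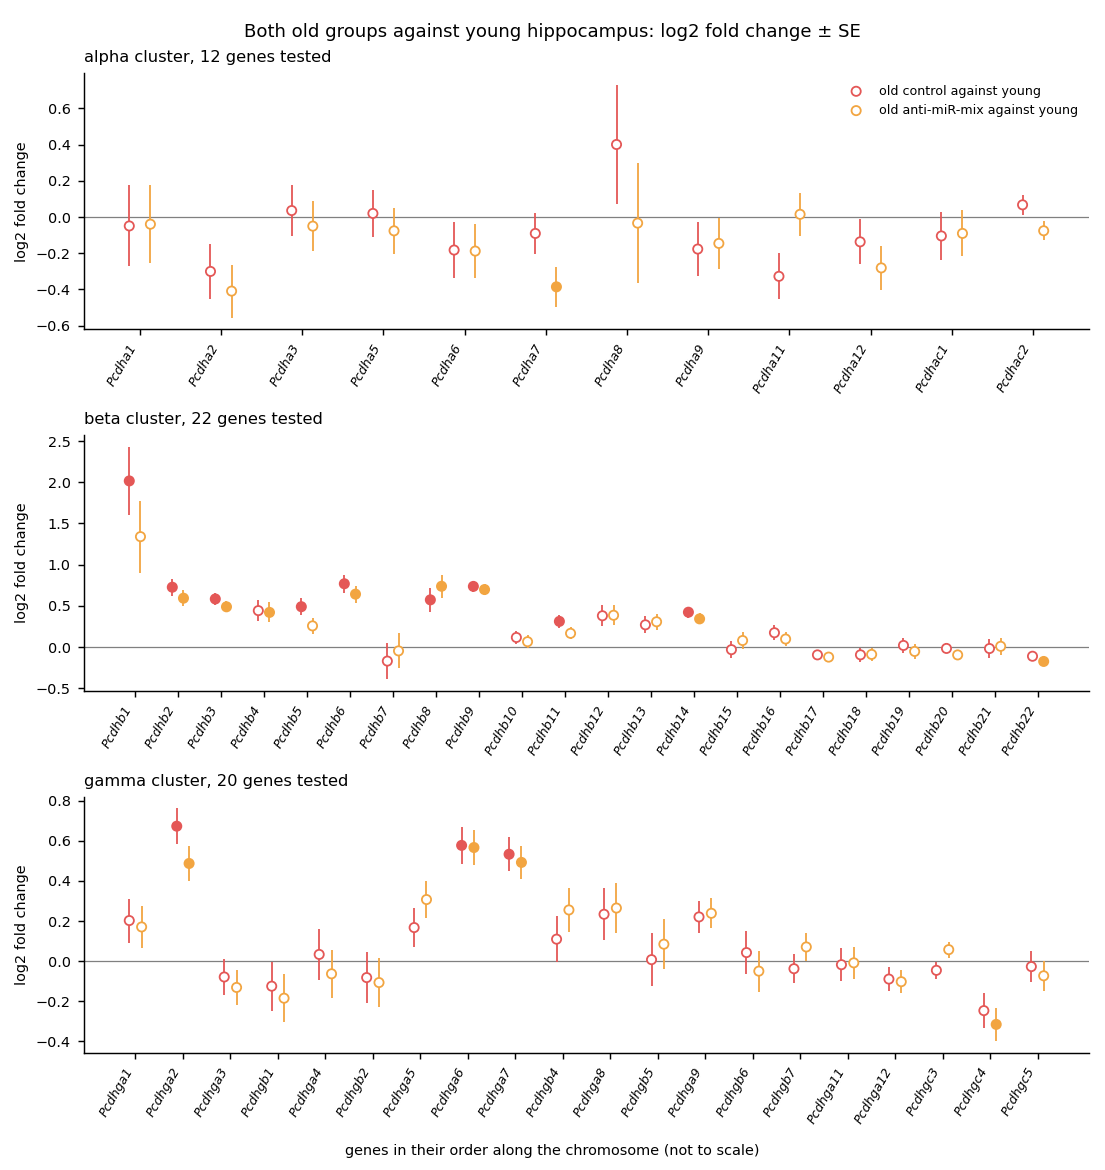
Log2 fold change (± SE) of old control and of old anti-miR-mix against young for the tested genes, in chromosomal order with 1 panel per cluster; filled points passed an adjusted p of 0.05. The filled beta points lie mostly between Pcdhb1 and Pcdhb9, and the filled gamma points above 0 are Pcdhga2, Pcdhga6 and Pcdhga7. The scale differs between panels, and both comparisons share the 6 young libraries.

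In the gamma cluster the 3 genes that rose were Pcdhga2, Pcdhga6 and Pcdhga7. Pcdhga2 had 10.1, 11.3 and 12.9 CPM in young, 15.5, 17.1 and 22.4 CPM in old control and 13.3, 15.4 and 18.9 CPM in old anti-miR-mix libraries, with a log2 fold change with age of 0.67 ± 0.09 (edgeR adjusted p = 0.0003). Pcdhga6 had 9.31, 10.2 and 12.6 CPM in young, 12.8, 15.9 and 18.7 CPM in old control and 14.2, 15.7 and 17.5 CPM in old anti-miR-mix libraries, a log2 fold change with age of 0.58 ± 0.09 (edgeR adjusted p = 0.00144). Pcdhga7 had 7.59, 8.91 and 11.1 CPM in young, 11.7, 13.6 and 15.6 CPM in old control and 12.3, 12.8 and 14.6 CPM in old anti-miR-mix libraries, a log2 fold change with age of 0.53 ± 0.08 (edgeR adjusted p = 0.00138). For all 3 genes both old groups lay above the young range.

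The gamma A gene Pcdhga9 had a log2 fold change of 0.22 ± 0.08 (edgeR adjusted p = 0.131) and the other 7 of the 11 tested gamma A genes lay between -0.09 and 0.23. None of the 6 gamma B genes was called (edgeR, 0 of 6 also at an unadjusted p under 0.05). Of all genes tested, 1.32% rose, 1.34% fell and 18.1% had such an unadjusted p. The smallest p values in gamma B were those of Pcdhgb1 (log2 fold change -0.12 ± 0.12) and Pcdhgb4 (0.11 ± 0.11). Gamma A and gamma B genes are interspersed along the same stretch of the chromosome. Pcdhga1 to Pcdhga3 and Pcdhga5 to Pcdhga7 stand in runs without a gamma B gene, and these runs hold Pcdhga2, Pcdhga6 and Pcdhga7.

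**Figure D3:**
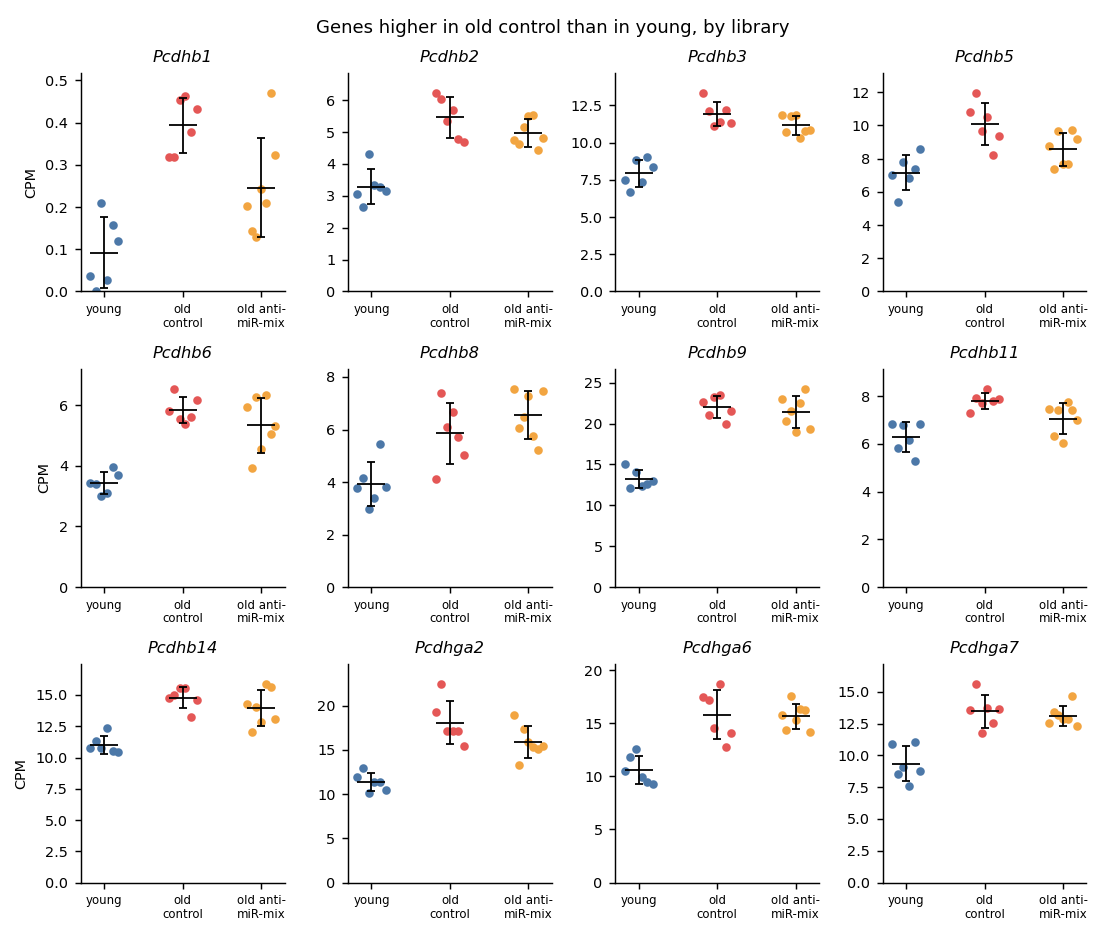
CPM of the 12 genes that rose in old control against young mice, with 1 point per library and the mean ± SD in black, each panel starting at 0. The young points lie below all old control points for 10 of the 12 genes, the exceptions being Pcdhb5 and Pcdhb8.

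Of the 54 members, 10 had all old control libraries above all young ones and 0 had the reverse, where 1.25% of all genes tested lay wholly above and 1.28% wholly below. Without Pcdhb1, which met the read limit through the old groups, 9 of 53 members lay wholly above. Members varied between libraries slightly more than other genes, with a median SD within groups of 0.17 log2 CPM against 0.14 for all genes tested. With old control replicates 5 and 6 counted as 1 library, since their counts were closer to each other than those of any other pair, 10 members rose. The deposited log2 values were found to depend on a number from 1 to 4 per library, whose source is not described in the labels or headers and which is called the processing group here. With this number as a factor, 10 members rose as well.

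Alpha genes had values on both sides of 0. Pcdha11 had 1.90, 2.27 and 3.02 CPM in young and 1.58, 1.83 and 2.44 CPM in old control mice, a log2 fold change of -0.33 ± 0.13 (edgeR adjusted p = 0.171). Pcdha2 had a log2 fold change of -0.30 ± 0.15 (edgeR adjusted p = 0.303), with 1.66 to 3.20 CPM in young and 1.55 to 2.57 CPM in old control mice. Neither difference passed the test, and the values overlapped. Pcdha8, with few reads, had the widest error of the cluster at 0.40 ± 0.33. The summed level of the 12 tested alpha genes ran from 51.1 to 58.7 CPM in young, 51.4 to 59.1 CPM in old control and 48.1 to 57.9 CPM in old anti-miR-mix mice.

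None of the 5 C-type genes was called with age by edgeR or DESeq2. At an unadjusted edgeR p under 0.05 there was 1, Pcdhgc4, where 18.1% of all genes tested had such a p. Pcdhgc5 had 68.8, 74.8 and 83.2 CPM in young and 67.4, 72.2 and 79.9 CPM in old control mice, with a log2 fold change of -0.03 and a 95% interval of -0.19 to 0.13. Pcdhgc3 had 26.6, 27.9 and 28.9 CPM in young and 25.4, 27.3 and 28.1 CPM in old control mice, with an interval of -0.13 to 0.04. The interval was -0.05 to 0.18 for Pcdhac2 and -0.38 to 0.17 for Pcdhac1. Pcdhgc4 had 12.6, 16.7 and 19.2 CPM in young, 11.7, 14.3 and 14.4 CPM in old control and 10.9, 13.3 and 14.9 CPM in old anti-miR-mix mice. Its log2 fold change with age was -0.25 ± 0.09 (edgeR adjusted p = 0.127), and without young replicate 2, the lowest young library, it was -0.31 and passed at an adjusted p of 0.0293.

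**Figure D4:**
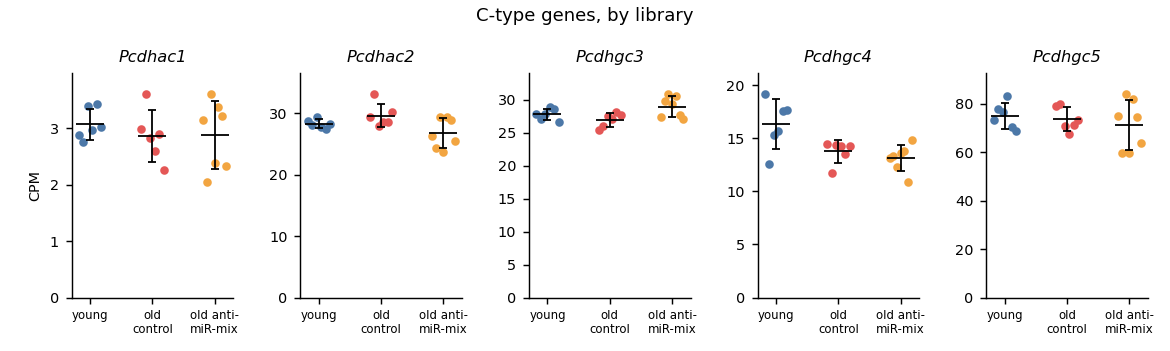
CPM of the 5 C-type genes, with 1 point per library and the mean ± SD in black, each panel starting at 0. The groups overlap for every gene; Pcdhgc4 runs from 12.6 to 19.2 CPM in young and from 10.9 to 14.9 CPM in old anti-miR-mix mice.

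Old anti-miR-mix mice were also compared with young mice, to see which of the members still differed from the young level under treatment. This comparison shares the young libraries with the one above, so the 2 are not independent. Here 13 of 54 members were called by edgeR, 10 higher and 3 lower, where 4.57% of all genes tested were higher and 1.63% lower. The 10 higher genes were Pcdhb2, Pcdhb3, Pcdhb4, Pcdhb6, Pcdhb8, Pcdhb9, Pcdhb14, Pcdhga2, Pcdhga6 and Pcdhga7. The 3 lower genes were Pcdha7, Pcdhb22 and Pcdhgc4.

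Side by side, the log2 fold changes against young in old control and in old anti-miR-mix mice were 0.74 and 0.70 for Pcdhb9, 0.58 and 0.57 for Pcdhga6, and 0.57 and 0.74 for Pcdhb8. They were 0.49 and 0.26 for Pcdhb5, 0.31 and 0.17 for Pcdhb11, and 2.02 and 1.34 for Pcdhb1, none of which passed against young under the anti-miR-mix (edgeR adjusted p = 0.146, 0.202 and 0.0742). Pcdhb1 did pass by DESeq2 (adjusted p = 0.0488), by limma on the deposited log2 values (adjusted p = 0.0398) and, in edgeR, without young replicate 3 (adjusted p = 0.0278). Pcdhb4, at 0.44 and 0.42, passed under the anti-miR-mix at an adjusted p of 0.0400, and this call was lost, at an adjusted p of 0.0516 to 0.0978, without any one of young replicates 1, 2, 4 and 6 or old anti-miR-mix replicates 3, 4, 5 and 7. The same call was lost without a read limit, with a replicate block and with the processing group as a factor or a linear term.

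The 3 genes that were lower in old anti-miR-mix than in young mice had small differences. Pcdhgc4 had a log2 fold change of -0.32 ± 0.08 (edgeR adjusted p = 0.0253). Pcdha7 had 1.37, 1.71 and 1.87 CPM in young and 1.06, 1.26 and 1.48 CPM in old anti-miR-mix mice, a log2 fold change of -0.39 ± 0.11 (edgeR adjusted p = 0.0393). Pcdhb22, the last beta gene, had 15.3, 16.1 and 16.6 CPM in young and 13.0, 14.3 and 15.5 CPM in old anti-miR-mix mice, a log2 fold change of -0.17 ± 0.05 (edgeR adjusted p = 0.0273). Each of these calls was lost when 1 of several libraries was left out, and also under some other settings. By DESeq2 Pcdha7 did not pass (adjusted p = 0.0764). Pcdha7 and Pcdhb22 also lost their calls without a read limit, with a replicate block and with only the 2 groups compared. Pcdhgc4 lost its call with only the 2 groups compared and with the processing group as a factor. Pcdhgc4 was at an adjusted p of 0.0521 to 0.0750 without any one of young replicates 1, 5 and 6 or old anti-miR-mix replicate 3, and Pcdhb22 at 0.0543 to 0.0631 without any one of young replicates 1, 5 and 6 or old anti-miR-mix replicate 5. Pcdha7 was at 0.0523 to 0.0905 without any one of young replicates 1, 3, 4 and 5 or old anti-miR-mix replicates 1, 2, 3, 6 and 7.

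Other named members did not pass in this comparison, and some of them came near the threshold. Pcdhga5 had a log2 fold change of 0.31 ± 0.09 (edgeR adjusted p = 0.0525) and passed at 0.0135 to 0.0477 without young replicate 3 or without old anti-miR-mix replicate 3 or 4. Pcdhga9 had 0.24 ± 0.08 (edgeR adjusted p = 0.0646) and passed at 0.0475 without old anti-miR-mix replicate 2. Pcdha2 had -0.41 ± 0.15 (edgeR adjusted p = 0.108) and passed at 0.0242 without young replicate 2. In gamma B, Pcdhgb4 had 0.26 ± 0.11 (edgeR adjusted p = 0.191) and passed at 0.0213 without old anti-miR-mix replicate 4, while Pcdhgb1 had -0.18 ± 0.12 (edgeR adjusted p = 0.423). In the alpha cluster Pcdha12 had -0.28 ± 0.12 (edgeR adjusted p = 0.186).

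The comparison of old anti-miR-mix with old control mice addressed the effect of inhibiting the 3 microRNAs. By edgeR 0 of the 54 members passed, where 0.669% of all genes tested did, all of them higher. At an unadjusted p under 0.05 there were 6 of 54 members, 2 higher and 4 lower, where 10.5% of all genes tested had such a p, and DESeq2 called 0 members as well. The median log2 fold change was -0.09 for alpha, -0.06 for beta and -0.02 for gamma genes, beside 0.00035 for all genes tested.

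The member with the smallest p was Pcdha11, with 1.58, 1.83 and 2.44 CPM in old control and 2.08, 2.38 and 2.80 CPM in old anti-miR-mix mice. Its log2 fold change was 0.34 ± 0.12 (95% interval 0.09 to 0.60, edgeR adjusted p = 0.278). Pcdhgc3 was the other member with a positive value at this level, at 0.10 ± 0.04 (edgeR adjusted p = 0.323). The 4 negative ones were Pcdha7 (-0.30 ± 0.11), Pcdhac2 (-0.14 ± 0.05), Pcdhb5 (-0.23 ± 0.10) and Pcdhga2 (-0.19 ± 0.08), with edgeR adjusted p values from 0.300 to 0.441. Pcdhac2 had 27.8, 29.0 and 33.2 CPM in old control and 23.8, 26.3 and 29.4 CPM in old anti-miR-mix mice, and these ranges overlapped. The old groups overlapped for all 54 members, where 0.498% of all genes tested did not overlap.

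For the 12 genes that rose with age the log2 difference between the old groups ran from -0.68 (Pcdhb1) to 0.16 (Pcdhb8). It was negative, toward the young level, for 11 of the 12, beside 35 of all 54 members, which include the 12. Since the 12 were picked for high old control values, a negative sign was favoured in advance, and no conclusion is drawn from this count. The libraries of old control mice enter both this comparison and the one with age, so a low or high old control value moves both in opposite directions. The 95% interval of the difference held 0 for 10 of the 12 genes and lay below 0 for Pcdhb5 and Pcdhga2. It was -0.17 to 0.09 for Pcdhb9, -0.24 to 0.04 for Pcdhb3, -0.19 to 0.17 for Pcdhga6 and -0.21 to 0.12 for Pcdhga7, and at its widest -1.37 to 0.02 for Pcdhb1. Of the gamma genes with the smallest p values, Pcdhga5 had 0.14 ± 0.09, Pcdhgb4 0.15 ± 0.11 and Pcdhgb7 0.11 ± 0.07.

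**Figure D5:**
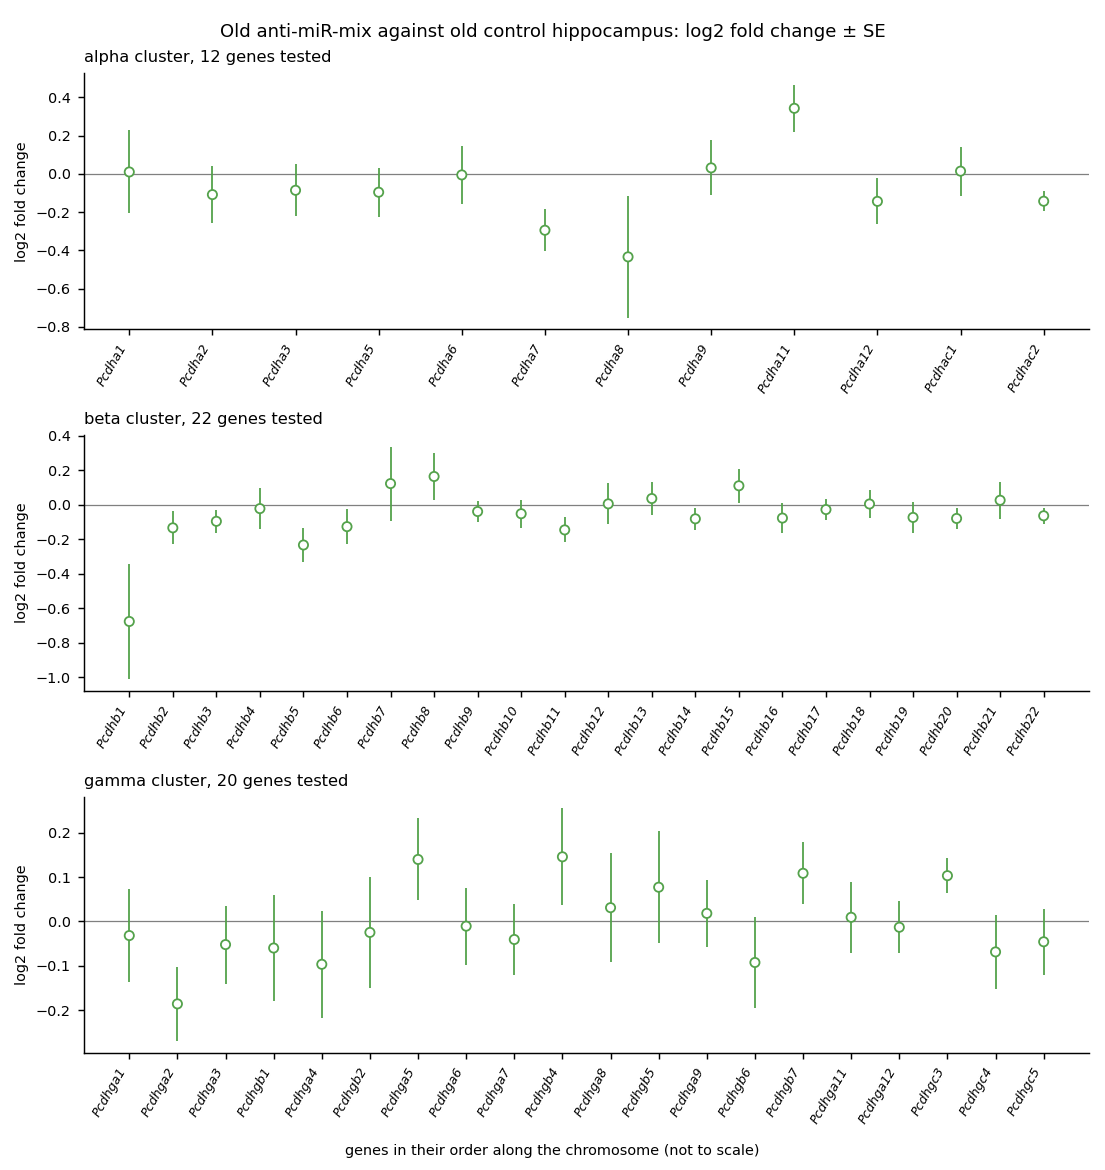
Log2 fold change (± SE) of old anti-miR-mix against old control for the tested genes, in chromosomal order with 1 panel per cluster. All points are open, since 0 of 54 genes passed an adjusted p of 0.05, and the scale differs between panels.

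The 3 prime UTRs of GENCODE M21 were searched on the transcript strand for the complement of each seed, AGTTCTC for miR-146a-5p, TGCACTG for miR-148a-3p and TGAATGT for miR-181a-5p. The alpha genes end in a common 3 prime UTR of 2404 bases that held the miR-181a-5p letters, so all 14 alpha members had this match through the same stretch. Pcdha6, annotated with a longer UTR, was the only alpha member with the miR-148a-3p letters. None of the 22 gamma members held any of the 3. In the beta cluster, where each gene has its own UTR, the miR-181a-5p letters were in Pcdhb3, Pcdhb14, Pcdhb19 and Pcdhb21, the miR-146a-5p letters in Pcdhb7, Pcdhb11, Pcdhb14 and Pcdhb16, and the miR-148a-3p letters in Pcdhb18 and Pcdhb19. Among 15452 genes tested that have an annotated 3 prime UTR, 13.4% held the miR-146a-5p, 16.2% the miR-148a-3p and 18.9% the miR-181a-5p letters.

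Under the anti-miR-mix the 8 beta genes with a match had a median log2 fold change against old control of -0.07 and a range of -0.15 to 0.12. The 14 beta genes without one had a median of -0.04 and a range of -0.68 to 0.16. The 12 tested alpha genes, which share their matches, had a median of -0.09, and the 20 gamma genes without a match -0.02. In each of these sets 0 genes were called, and the difference between the sets was not tested. A match is a description of letters, not of a site in use.

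Genes that act on protocadherin promoters or proteins were taken from lists of known factors. As a scale for these lists and the cell type markers below, 1.32% of all genes tested rose and 1.34% fell with age (edgeR). An unadjusted p under 0.05 was held by 18.1% with age and by 10.5% between the old groups, where 0.669% were called. For old anti-miR-mix against young, 4.57% were higher and 1.63% lower. Of 17 promoter regulators, such as CTCF, cohesin subunits and loaders and DNA methyltransferases, 0 rose and 2 fell with age. Dnmt3a, a de novo DNA methyltransferase, had 117.8, 120.6 and 133.5 CPM in young and 105.5, 108.6 and 120.8 CPM in old control mice, a log2 fold change of -0.17 ± 0.04 (edgeR adjusted p = 0.0379). Mau2, part of the complex that loads cohesin, had 113.7, 117.4 and 124.6 CPM in young and 103.5, 109.6 and 112.4 CPM in old control mice, a log2 fold change of -0.13 ± 0.03 (edgeR adjusted p = 0.0381). In old anti-miR-mix mice Dnmt3a was again lower than in young (-0.17 ± 0.04, edgeR adjusted p = 0.0104) and was the only regulator called. Between the old groups 0 of 17 passed (1 at an unadjusted p under 0.05), and Pds5b had the smallest p (-0.11 ± 0.05, edgeR adjusted p = 0.470).

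Of 16 partners and processing enzymes, such as the kinases PTK2 and PTK2B, the WAVE complex and the proteases that cleave protocadherins, 0 passed with age and 0 between the old groups (2 and 1 at an unadjusted p under 0.05). Between the old groups the smallest p was that of Cyfip2, a WAVE complex subunit (-0.09 ± 0.04, edgeR adjusted p = 0.382). Ret, a receptor tyrosine kinase, was lower in old anti-miR-mix than in young mice (-0.33 ± 0.09, edgeR adjusted p = 0.0280).

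The 12 non-clustered protocadherins, which lie outside these arrays, had 0 genes called with age (3 at an unadjusted p under 0.05), a median log2 fold change of -0.05 and the smallest p in Pcdh18 (-0.28 ± 0.09, edgeR adjusted p = 0.0944). Pcdh18 was lower in old anti-miR-mix than in young mice (-0.34 ± 0.09, edgeR adjusted p = 0.0185). Between the old groups 0 of 12 passed (1 at an unadjusted p under 0.05), and Pcdh17 had the smallest p (-0.10 ± 0.04, edgeR adjusted p = 0.413).

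Of 8 tested genes that lie among the members without being protocadherins, 1 rose with age. It was 3222401L13Rik, a long intergenic RNA at chr18:37655451-37661742 on the plus strand, which ends just before Pcdhga1 begins, and it was singled out after its values were seen. It had 2.13, 2.54 and 2.98 CPM in young, 3.38, 3.79 and 4.54 CPM in old control and 3.71, 3.95 and 4.94 CPM in old anti-miR-mix mice. Both old groups lay above the young one, with log2 fold changes of 0.59 (edgeR adjusted p = 0.0023) and 0.70 (edgeR adjusted p = 0.000118). Taf7, a subunit of a general transcription factor that lies between the beta and gamma clusters, had a log2 fold change of -0.12 with age (edgeR adjusted p = 0.545). Gm10545, Gm10544, Gm37446, Gm26672 and BC037039, also among these genes, overlap exons of members on the opposite strand, and the library kit does not mark strand. What part of their reads, or of those of 3222401L13Rik, came from member transcripts was not tested. Of the 10 nearest tested genes outside the members, 5 on each side, 0 were called in any of the 3 comparisons, with a smallest adjusted p of 0.354 with age.

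In whole tissue, fewer cells of a type and less RNA per cell cannot be told apart. The 5 pan-neuronal markers had 0 calls in each comparison, and their summed level was 5910 to 6291 CPM in young, 5888 to 6479 CPM in old control and 5723 to 6108 CPM in old anti-miR-mix mice. The 5 CA1 pyramidal markers had 0 calls with age, at 791.7 to 956.8 CPM in young and 813.7 to 985.1 CPM in old control mice. The inhibitory neuron markers (6 genes, 0 calls with age) were at 889.8 to 941.7 CPM in young and 927.9 to 985.3 CPM in old control mice. Of the oligodendrocyte markers, 3 of 5 fell with age, with 6690 to 10599 CPM in young and 5913 to 7052 CPM in old control mice, and of 4 oligodendrocyte precursor markers 1 fell, Gpr17. Of 5 microglial markers 1 rose with age, 4 were higher in old anti-miR-mix than in young mice and 1 was higher than in old control mice. The 5 CA3 and 6 dentate granule cell markers had 0 calls with age, likewise the 5 immature neuron, 5 astrocyte, 4 endothelial, 5 leptomeningeal fibroblast, 4 tested choroid plexus and 4 thalamus markers. The summed choroid plexus markers ran from 16.4 to 27.9 CPM in young, 19.9 to 83.2 CPM in old control and 14.4 to 103.5 CPM in old anti-miR-mix mice, and the leptomeningeal ones from 34.9 to 122, 32.7 to 58.2 and 31.8 to 113.4 CPM. Against young, old anti-miR-mix mice also had 1 astrocyte and 1 thalamus marker higher, and 1 CA1 pyramidal, 1 immature neuron and 1 oligodendrocyte precursor marker lower. What part these other cell types had in the values of the members was not tested.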

How the data were processed

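Per the study's methods, polyadenylated RNA was sequenced as single-end reads of 50 bases, and the authors aligned reads to mm10 with STAR 2.5.2b and counted them per gene with featureCounts (Subread 1.5.1). The library kit does not mark strand, and strand and multi-mapping options are not given in the sources used here, so values of genes with overlapping or near-identical neighbours are uncertain. The deposited values were raw counts and a table of log2 values. The deposited log2 values equalled log2(CPM + 1) minus a gene-wise slope times a number from 1 to 4 for each library (largest residual 3.4e-08), and entered only an alternative. The number was inferred from these values and no label or header describes it. It is called the processing group here, and whether it marks a batch is not known. Depth was 26653511 to 38908947 counts per library, and 0 value columns stayed unassigned.

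Groups came from the sample descriptions, since some control titles also carry the name of the mix. No old control library was in processing group 3. The labels do not say that each library is a separate animal, so p values measure the spread between these samples, which may be technical. Counts were fitted with edgeR 4.0.16 (R 4.3.3, TMM, quasi-likelihood, 19 libraries in 1 fit, no covariate) over 19286 genes with at least 5 reads in 10 libraries, with Benjamini-Hochberg adjustment and a threshold of 0.05. The study's DESeq2 was run as an alternative (version 1.42.0), beside limma 3.58.1. Log2 CPM used a prior count of 2. The script was tested on simulated data. Members, gene lists and tests were chosen with earlier results of these data known. Genes named are all members past the threshold, the C-type members, the 2 smallest p values per alpha, beta, gamma A and gamma B group and comparison, the highest and lowest level per length in each, those nearest the read limit, and, in the lists, genes past the threshold or else the smallest p. Genes and windows came from GENCODE M21. No sequence of a member is printed. The smallest p of 1 list is not reported here. Alternatives were size factors, DESeq2, other read limits, a replicate block, processing group, merged libraries, GC and length, 2 groups only and leaving out each library.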

Additional observations from a re-analysis of the deposited data

Results flagged for a closer look

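Of 96 sets of values (the named members in each of the 3 groups), 3 held a library that stood far from the rest of its group; chance alone places about 1 in 20 groups past this limit. Pcdha2 was low in young replicate 2, at 0.78 log2 CPM (44 reads) against 1.42 to 1.71 in the other young libraries. Pcdhgb4 was low in old anti-miR-mix replicate 4, at 1.496 log2 CPM (91 reads) against 2.03 to 2.33. Pcdhgc4 was low in old control replicate 2, at 3.56 log2 CPM (330 reads) against 3.76 to 3.86.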

How the results depend on the processing

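Under the 12 other settings, 10 to 12 members were called with age, of which at least 10 were among the 12 reported, and 10 to 17 for old anti-miR-mix against young, with 17 by DESeq2 and 16 by limma on the deposited log2 values. Between the old groups the count was 0 under each setting, with 4 to 8 members at an unadjusted p under 0.05. Leaving out single libraries gave 10 to 13 members with age, 9 to 15 for old anti-miR-mix against young and 0 between the old groups. Without young replicate 1, old anti-miR-mix against young gave 9 members. The cluster medians with age stayed between 0.25 and 0.32 for beta, -0.13 and -0.05 for alpha and -0.01 and 0.07 for gamma. No alternative reversed a called member.

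Replicate numbers did not pair the libraries (correlations of same-numbered libraries between -0.461 and 0.444). With a replicate block 11, 0 and 12 members passed with age, between the old groups and for old anti-miR-mix against young. For old control against young, 2 of 6 libraries correlated best with their own number. Pcdhb8 also lost its call with age under the block and with the processing group, and Pcdhb11 without a read limit and with the processing group. With age, DESeq2 gave no adjusted p for Pcdhb1. The alternative with merged libraries and processing group, and limma on the log2 values, were chosen after seeing the data. Low counts limit Pcdhb1 and Pcdha8, and shared exons the alpha and gamma genes. With a prior count of 0.5 the median level of the members changed by less than the spread between libraries.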
